A study of Mus musculus with 2 samples.

Results

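The gelsolin and villin family of actin-binding proteins was followed across 2 arrays of mouse Neuro2a cells, a neuroblastoma line, 1 from siControl-transfected cells and 1 from siCPEB1-transfected cells. Its 8 genes are Avil, Vil1, Vill, Svil, Gsn, Scin, Capg and Flii. All probe sets annotated with 1 of these symbols alone, current or older, were taken, which gave 17 of the 45037 probe sets of the array. No probe set carried a member among several symbols. Avil was chosen from its low signal ratio of siCPEB1 over siControl in these same arrays, and the other 7 genes because they belong to its family, so the Avil ratio is a description of how it was selected and supports nothing.

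Both cultures were transfected with siRNA by lipofection, siControl with a control siRNA and siCPEB1 with siRNA against the coding region of Cpeb1, and the labels state 24 h of treatment, with each array made from 100 ng of RNA. CPEB1 binds cytoplasmic polyadenylation elements of mRNAs, and the comparison asks how gene expression differs once CPEB1 is depleted. Neuro2a is 1 tumor-derived line. The labels name 1 siRNA treatment against Cpeb1, so an effect of losing CPEB1 and an effect of that siRNA on other mRNAs cannot be told apart. The deposited values are MAS5 signals, a brightness for each probe set on a linear scale. The array median was 21.05 in siControl and 21.6 in siCPEB1. With 1 array per condition there is no test, and every fold change here describes these 2 arrays. In a bulk culture, fewer cells of a type and less RNA per cell cannot be told apart.

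Proteins of this family share a repeated fold, the gelsolin domain, which binds actin and in most members responds to calcium. Gelsolin, the namesake, severs actin filaments and caps their fast-growing ends, and villin in addition bundles the filaments of intestinal microvilli by means of a small C-terminal headpiece. Advillin, the product of Avil, is the family member best known from sensory and other peripheral neurons, where it serves as a marker gene.

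As a check of the labels, the 1 probe set of Cpeb1 read 302 in the siControl array but 38.5 after siCPEB1, 7.86-fold lower. A probe set was counted only if 1 array placed it at or above the median and the second no lower than percentile 25, and 23655 probe sets met this. Where a gene had several such probe sets, their log2 ratios differed with a pooled SD of 0.37 over 5531 genes. With probe sets divided by signal into 10 levels, it was 0.67 in the dimmest level and 0.21 in the brightest, and it is the only error at hand beside that of the control transcripts. The 18 hybridization controls averaged -0.13 (SD 0.075) in log2 ratio, and the 24 poly-A controls averaged -0.18 (SD 0.185). None of these holds the spread between cultures. Of 12 markers of sympathetic neuroblasts on the array, the cells from which such tumors derive, 11 were at the median or above in each array, with summed signals of 18360 and 18742. Without Prph, the brightest of them, the sums were 12404 and 15995. Of the 11 that passed, Phox2a, Gata3, Dbh and Chgb were higher and Prph lower by more than 2-fold. Over all passing genes 4.96% were higher and 3.45% lower. The other passing probe set of Dbh was not past 2-fold (log2 ratio 0.81). Of 7 epithelial markers 2 reached the median in siControl and 1 in siCPEB1, of 8 macrophage markers 1 and 2, of 8 fibroblast markers 3 and 3, and of 7 tuft cell markers 1 and 2. The summed signals of these 4 lists were 99.7, 93.1, 206 and 420 in siControl and 116, 119, 424 and 461 in siCPEB1, and no marker was at a signal of 0. Past 2-fold in them were Col1a2, from 42.3 to 309, Pdgfrb, from 97.1 to 26.9, Tyrobp, from 9.62 to 22.8, and Alox5ap, from 9.45 to 23.8. Tyrobp and Alox5ap were below the median in siControl and passed the filter only through the siCPEB1 array, so their ratios have no firm level. The part of such differences in the family's values was not tested.

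The DNA upstream of the start is shown for Avil, which was selected for its ratio, and for Vil1, the villin gene. The sequences are the 250 bases before the transcript start given for Avil and for Vil1, both on the plus strand, taken from RefSeq (GRCm38.p6). The Avil window is chr10:127000459-127000708 and the Vil1 window chr1:74409134-74409383. RefSeq places the outer end of the Avil gene further upstream, at 127000065, so this window lies inside the annotated locus, and whether an exon or an intron of another transcript covers it was not analysed here. Promoter motifs were searched on both strands, and capitals mark their matches. They are the CCAAT box, the GC box with the letters GGGCGG, the TATA box with the letters TATAAA and the CArG box, the site of serum response factor at many actin genes. No marked site overlaps another. In the Avil window the match is on the minus strand, so the capitals show its reverse complement.
Avil: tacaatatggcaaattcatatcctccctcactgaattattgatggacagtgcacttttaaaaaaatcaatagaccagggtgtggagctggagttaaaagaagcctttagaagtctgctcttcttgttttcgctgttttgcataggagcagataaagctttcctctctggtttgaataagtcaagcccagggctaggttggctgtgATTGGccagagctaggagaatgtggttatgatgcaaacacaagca
Vil1: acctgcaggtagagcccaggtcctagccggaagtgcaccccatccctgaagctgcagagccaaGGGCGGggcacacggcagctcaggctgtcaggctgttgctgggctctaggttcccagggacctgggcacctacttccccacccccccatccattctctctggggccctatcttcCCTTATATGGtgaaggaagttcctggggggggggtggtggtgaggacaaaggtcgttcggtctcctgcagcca
The Avil window holds 1 CCAAT box, which begins 45 bases before the start, and neither a GC box nor a CArG box. The Vil1 window holds 1 GC box, 187 bases before the start, and 1 CArG box, 73 bases before it. Among 32851 windows of the same length, 33.8% hold a CCAAT box, 32.7% a GC box, 12.4% a TATA box and 1.47% a CArG box. The Avil window is 42.0% G and C with 1 CpG, against 62.8% with 5 in Vil1, and medians of 52.4% and 6 over all windows. The window of Vill, not printed, is 56.4% G and C with 7 CpG and holds none of these motifs. These matches describe the letters of the windows and were related to no signal.

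Avil (Entrez Gene 11567, chromosome 10 from 127000065 to 127020994 in GRCm38) read 295 in the siControl array and 23.2 in the siCPEB1 array, a 12.7-fold lower signal (log2 ratio -3.67). The siControl signal lay at percentile 83.0 of its array. The siCPEB1 signal lay at percentile 51.2, still above the array median of 21.6, so the ratio is the same when signals under the median are set at the median. Repeat probe sets at the mean signal level of Avil had an SD of 0.36, and those of the dimmest level had 0.67. Since Avil was selected for its ratio, the size of the ratio beside these SDs supports nothing. With 16 added to both signals the log2 ratio of Avil is -2.99. Avil has 1 probe set on the array, so no second measurement of its transcript could be set beside it, and its position within the transcript was not analysed here. Among the passing probe sets, 3 had a lower ratio, those of Car6 and 2610316D01Rik and 1 with no symbol listed. Of the 7066 passing probe sets whose siControl signal was within 2-fold of that of Avil, 264 were lower by more than 2-fold (3.74%) and 2, Avil included, had a ratio as low.

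**Figure D1:**
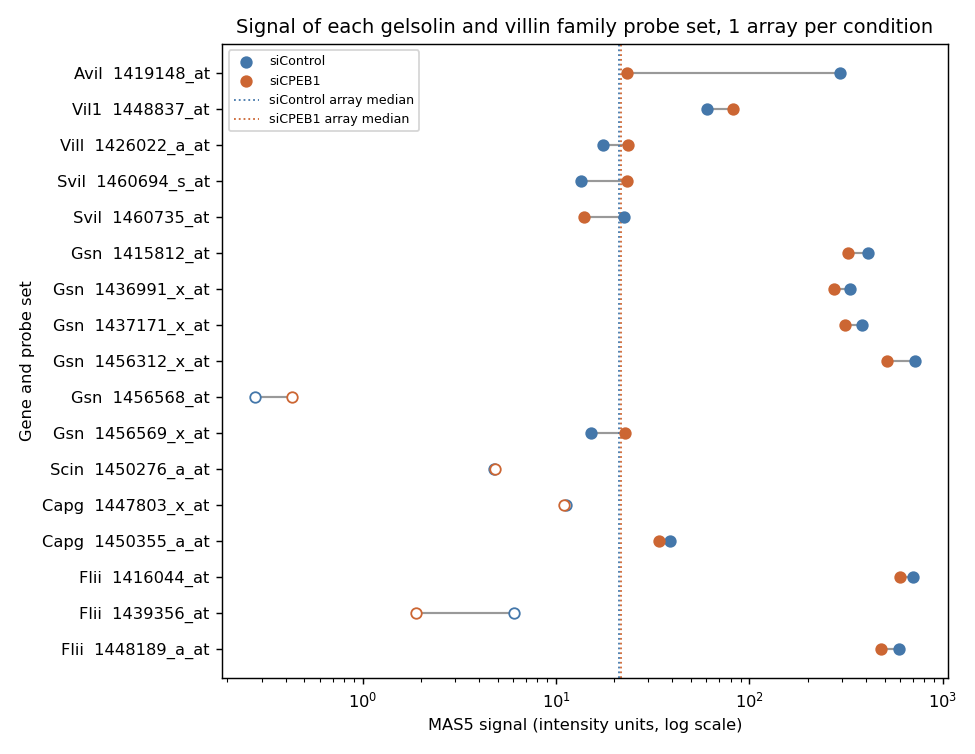
MAS5 signal (x axis, log scale) of each of the 17 probe sets of the gelsolin and villin family (y axis) in siControl (blue) and siCPEB1 (orange), 1 array each, joined by a line, with dotted lines at the array medians and open circles for probe sets that did not pass the signal filter. The Avil points lie at 295 and 23.2, and the other lines are short except at dim probe sets such as that of Flii at 6.04 and 1.89.

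Vil1, the villin gene (chromosome 1 from 74409384 to 74435560, GRCm38 as for all genes), read 60.6 in siControl-transfected cells and 81.9 in siCPEB1-transfected cells (log2 ratio 0.43), above the array median in both. Vill (chromosome 9 from 119052729 to 119071525), which encodes a villin-like protein, had signals of 17.5 and 23.5 (log2 ratio 0.43), and its log2 ratio is 0.16 once the siControl value is raised to the median. Both ratios have the opposite sign to that of Avil, and they are 1.19 and 0.637 times the SD between probe sets at their level. Neither is past 2-fold, and each gene has 1 probe set.

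Svil encodes supervillin, a large relative with a headpiece that links actin and myosin to the plasma membrane, and its 2 probe sets disagreed in sign. One went from 13.4 to 23.4 (log2 ratio 0.80) and the other from 22.4 to 13.98 (log2 ratio -0.68). Each reached the array median in 1 of the arrays only, and with signals set at the median or above the log2 ratios are 0.15 and -0.05. No direction can be given for Svil.

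Gsn, the gelsolin gene (chromosome 2 from 35256359 to 35307902), has 6 probe sets. The 4 that reached the array median in both arrays were lower in siCPEB1, from 715 to 513, from 410 to 323, from 380 to 313 and from 330 to 275. Their log2 ratios had a mean of -0.34 with an SD of 0.098, between -0.48 and -0.26, so they lie close together and far from 2-fold. Probe sets of 1 gene share the RNA of the same culture, and this SD holds no spread between cultures. It is a shift of -0.34 against a mean of -0.18 for the poly-A controls. The other probe sets were dim, at 15.2 and 22.8 (log2 ratio 0.59) and at 0.279 and 0.431, and the latter did not pass the filter. Of the 6, 4 are of the _x_at kind, which can bind transcripts of other genes. The remaining bright one had a log2 ratio of -0.34. The mean over all 6 probe sets, the dim ones included, was -0.03.

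Scin (chromosome 12 from 40059769 to 40134228) encodes scinderin, also called adseverin, a close relative of gelsolin that severs filaments in secretory cells. Its 1 probe set had signals of 4.803 and 4.846, below the 25th percentile of both arrays (5.07 and 5.62), so it did not pass the filter and its ratio carries no level. Scin was the 1 member with no passing probe set.

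Capg (chromosome 6 from 72538282 to 72562983) encodes a short member of the family, which caps filament ends without severing them. It had signals of 38.7 and 34.1 at the probe set above the array median (log2 ratio -0.18) and of 11.3 and 11.0 at the other, which did not pass. Flii (chromosome 11 from 60714143 to 60727263) encodes flightless, in which leucine-rich repeats precede the gelsolin domains and which also acts with nuclear receptors as a coactivator. Its bright probe sets went from 703 to 604 and from 591 to 480, with log2 ratios of -0.22 and -0.30. These are 0.837 and 1.10 times the SD at their level. The third Flii probe set went from 6.04 to 1.89, a ratio past 2-fold between signals that are both far below the array median, and it did not pass the filter.

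Of the 17 member probe sets 13 passed the filter, which covers 7 of the 8 genes, and 9 reached the median in both arrays. Of the 13, 1 was lower by more than 2-fold, that of Avil, and none was higher. Over all passing probe sets, 4.04% were lower and 4.49% were higher by more than 2-fold, an order that turns under each of the 4 other scalings tried. Since Avil was selected for its ratio, nothing can be read from this count. Over all 17 probe sets, 11 had a log2 ratio below 0, with a median of -0.22, whereas the median over the whole array was 0.04 and 47.5% lay below 0. These 11 include 4 bright probe sets of the 1 gene Gsn and 3 of Flii.

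**Figure D2:**
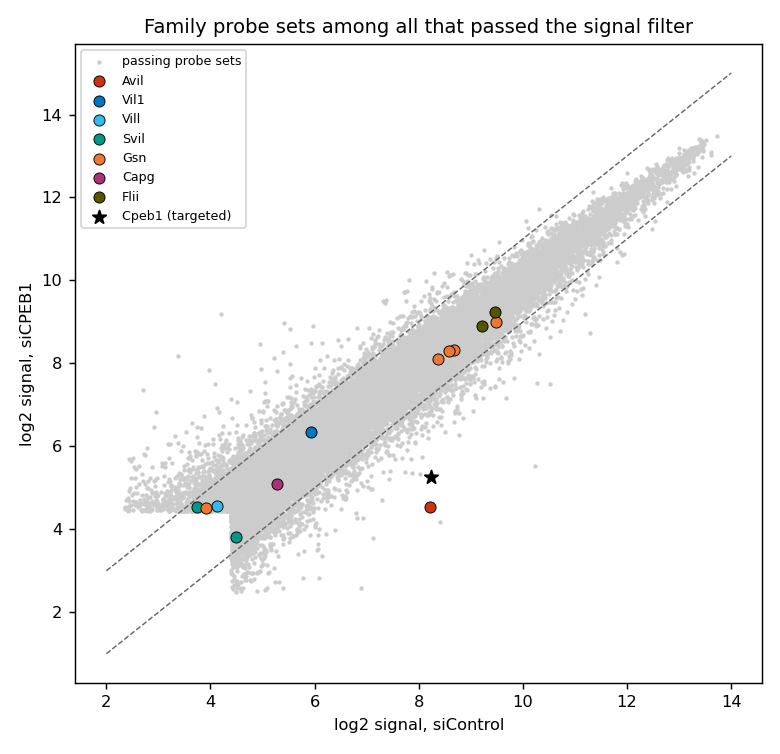
Log2 signal in siControl (x axis) and siCPEB1 (y axis) of the 23655 passing probe sets (grey), the 13 family probe sets among them (colored by gene) and Cpeb1 (star), with dashed lines at 2-fold. Avil lies below the lower line close to Cpeb1, with log2 ratios of -3.67 and -2.97, and every other family point lies between the lines.

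Among probe sets that name 1 gene, 5 were taken whose pair of log2 signals was nearest to that of Avil, by Euclidean distance over the 2 arrays. They were those of Cpeb1 (distance 0.73), Acot2 (0.82), Myt1 (0.89), Nxf7 (0.92) and Mtfp1 (0.97). The siRNA target itself was the nearest of these. Probe sets without a single symbol were left out of this search. One of them, with a lower ratio than Avil, went from 341 in siControl to 18.0 in siCPEB1, a pair nearer to Avil than that of Cpeb1. Acot2, a mitochondrial acyl-CoA thioesterase, went from 260 to 40.4, the neural transcription factor gene Myt1 from 234 to 41.2, Nxf7 from 157 to 26.2 and Mtfp1, a gene of mitochondrial fission, from 214 to 42.0. None of the 5 had a ratio as low as that of Avil. With 2 arrays this likeness means only that the signals are near each other.

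The genes beside Avil on chromosome 10 did not share its ratio. Since Avil was selected for that ratio, nothing is read from this contrast. Ctdsp2, a phosphatase gene that ends 89 bases before the Avil locus in RefSeq, had signals of 200 and 147 (log2 ratio -0.44), and its other probe sets had log2 ratios of -0.01 and -0.50. Tsfm, a mitochondrial translation elongation factor gene that begins 1337 bases beyond it, had signals of 885 and 732 (log2 ratio -0.27). Further out, Atp23 had a log2 ratio of -0.56, and Mettl1, a tRNA methyltransferase gene, had ratios from 0.28 to 0.43 at its 3 probe sets. Of the 32 nearest measured genes around all 8 members, 4 each, 25 passed the filter, and 1 was past 2-fold, in the lower direction. Over all passing genes 3.45% were lower and 4.96% higher by more than 2-fold, so nothing is read from this count. The 1 lower gene is Zfp277 near Scin, named after its value was seen. It went from 1265 to 301 and at its other probe set from 61.8 to 38.6.

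**Figure D3:**
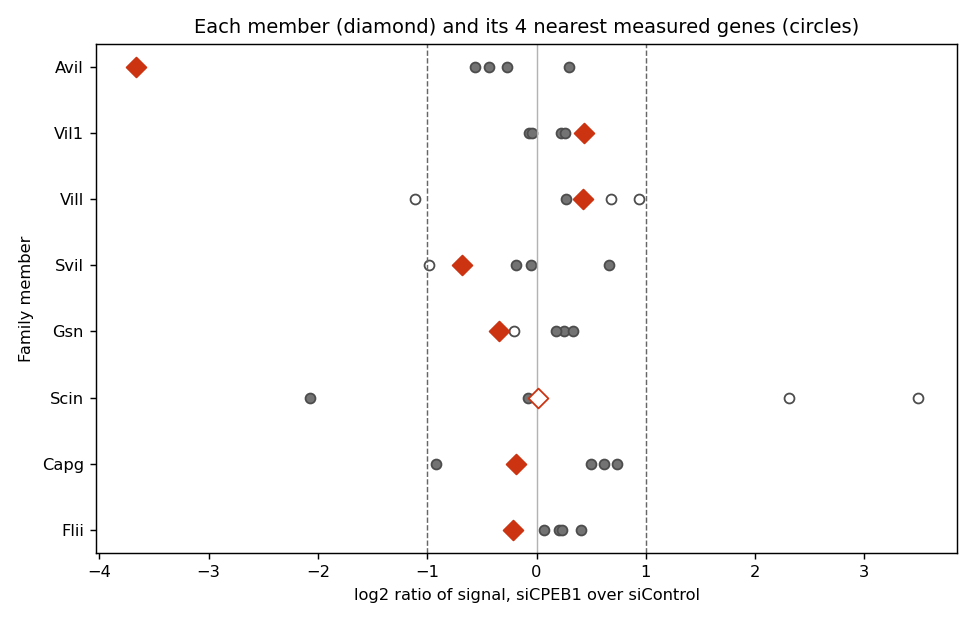
Log2 ratio of siCPEB1 over siControl (x axis) for each family member at its chosen probe set (diamonds) and for the 4 nearest measured genes on its chromosome (circles), with open symbols for those that did not pass the signal filter and dashed lines at 2-fold. The 4 genes around Avil lie between -0.56 and 0.30, and Avil, which was selected for its ratio, lies at -3.67.

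Actin filaments are also shaped by proteins of other families, and 8 lists of them were set beside the gelsolin and villin genes, with 1 probe set per gene. Of 86 listed genes 77 were on the array under a single symbol and 62 passed the filter. More than 2-fold differences were found for 5 of these 62, 1 higher and 4 lower, against 4.96% higher and 3.45% lower of all passing genes, and their median log2 ratio was -0.12 against 0.05 over all passing genes.

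Among 10 genes of severing and depolymerizing factors, the function nearest to that of gelsolin, 2 were lower, none was higher and the median log2 ratio was -0.43. The shares over all passing genes were 3.45% lower and 4.96% higher. Each list is short, so nothing is read from its count, here or in the lists below. Wdr1, whose product speeds the disassembly of cofilin-bound filaments, was lower at all 3 probe sets, from 1273 to 567, from 720 to 358 and from 592 to 246, which is 2.25-, 2.01- and 2.40-fold. Gmfb, a relative of cofilin that acts on Arp2/3 branches, went from 999 to 317, 3.15-fold lower, and was lower by more than 2-fold at 3 of its 4 passing probe sets. Cofilin itself, Cfl1, had log2 ratios of -0.50 and -0.46, and Dstn, the related destrin, had one of -0.35. Of 9 capping genes none was past 2-fold (median 0.30), and Capzb, a subunit of capping protein, had log2 ratios between -0.19 and 0.08 at its 3 passing probe sets.

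Of 11 genes of the Arp2/3 complex and its activators, 1 was lower (median -0.23). This was Actr3, an actin-related subunit of the complex, which went from 3589 to 1399, from 2824 to 1092 and from 1959 to 689. These are 2.57-, 2.59- and 2.84-fold lower. Actr2, Actr3b, Arpc1b and Arpc3 had no probe set under a single symbol and were not read. The other passing subunits had log2 ratios between -0.43 and -0.12 at the probe sets used, the first that of Arpc1a and the last that of Arpc2. Of 11 formins and other nucleators, 1 was higher (median 0.24), Fmn1 with signals of 22.1 and 49.0, the first close to the array median. Of 9 bundling and crosslinking genes, 1 was lower (median -0.10), the filamin gene Flnc, from 269 to 130 and from 506 to 181. The plain actin genes Actb and Actg1 and the monomer-binding genes had none past 2-fold among 7 (median -0.13), with Actg1 at -0.31.

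The headpiece of villin also occurs outside the family, in dematin and the actin-binding LIM proteins. Dmtn, Ablim1 and Ablim3 passed the filter and none was past 2-fold, with log2 ratios of 0.65, -0.53 and -0.71 at the probe sets used, while the other passing probe sets of Dmtn and Ablim1 were at -0.00106 and -0.23. Lrrfip1 and Lrrfip2, whose products bind flightless, had log2 ratios of -0.66 and -0.34 at the probe sets used, and the other passing probe set of Lrrfip2 was at 0.06.

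**Figure D4:**
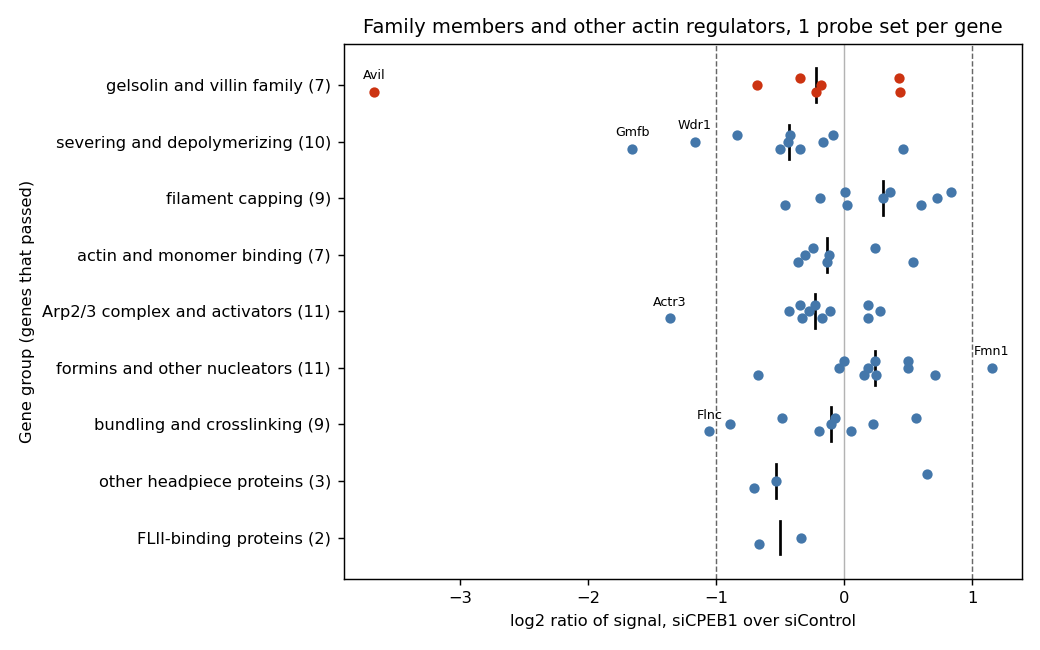
Log2 ratio of siCPEB1 over siControl (x axis) for each passing gene of the gelsolin and villin family (red) and of 8 lists of other actin regulators (blue), 1 probe set per gene, with black bars at the medians, dashed lines at 2-fold and the number of genes in parentheses. Avil lies at -3.67, beyond Gmfb at -1.66, Actr3 at -1.36, Wdr1 at -1.17 and Flnc at -1.05, and Fmn1 lies at 1.15.

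Because Avil marks sensory neurons, 20 other genes known from these cells were read in the same arrays. Of 15 on the array 11 passed the filter, with 4 past 2-fold, 2 in each direction, against 4.96% higher and 3.45% lower of all passing genes, and their median log2 ratio was 0.31. Over all 15 on the array, those that did not pass included, the median was -0.09. The summed signals were 8114 and 6832 with Prph but 2157 and 4085 without it, which is the opposite direction. Most of the sum without Prph is Ret, which went from 1221 to 2372 and was not past 2-fold. P2rx3, the ATP-gated channel of nociceptors, was lower at all 3 probe sets, from 231 to 52.0, from 121 to 19.5 and from 41.7 to 12.6. Prph, the peripheral neuron filament peripherin, went from 5956 to 2747. In the opposite direction, Isl1, a transcription factor of sensory and sympathetic neurons, went from 224 to 1036 and from 100.0 to 382, and Scn9a, a sodium channel of nociceptors and sympathetic neurons, from 63.0 to 155 at the probe set used. The tuft cell, another cell type that uses Avil as a marker, had Alox5ap past 2-fold (9.45 and 23.8). The siControl signal of Alox5ap was below the array median, so it passed only through the siCPEB1 array. Dclk1 was at 0.17 at the probe set used, with 2 of its 7 passing probe sets higher by more than 2-fold.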

How the data were processed

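RNA of 2 Neuro2a cultures, siControl and siCPEB1, was measured on 1 Affymetrix Mouse Genome 430 2.0 array each. The submitters' processing notes name MAS5 and Affymetrix Expression Console, with which the authors made the deposited signal, an intensity on a linear scale. How far each array was scaled is not stated in what was read. The file holds no detection calls. No column was left unmapped.

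Ratios of siCPEB1 over siControl were computed from the deposited intensity without any shift and put on the log2 scale. The study's supplementary tables hold the authors' own fold changes, and in the table of increases these differ from the plain ratio of its signals by a constant. They were not used, and such a constant would shift every log2 ratio given here alike. A probe set passed when its signal reached the median of 1 array and percentile 25 of the other, and was past 2-fold at a ratio above 2 or below 0.5. AFFX control probe sets (64) were left out. Gene symbols of the platform annotation were brought up to date by gene identifier with RefSeq (GRCm38.p6), with 34945 probe sets naming 1 gene, 932 several and 9160 none. Each gene was read at 1 probe set, taking a passing one before one that did not pass, then one without the _x_at or _s_at ending, then the brightest. The rule for naming genes was all members and their probe sets, Cpeb1, and up to 4 genes past 2-fold of each list or else its brightest. It also took the 5 profiles nearest to Avil among probe sets naming 1 gene, and the neighbours of a member past 2-fold. Some further genes were added as examples after their values were seen. The members, the lists and the rule were chosen with earlier results of these data known. A protein comparison was planned but not made, because no protein sequence was used here. Alternatives were 4 other scalings, 16 added to both signals, signals set at the array median or above, 3 other filters, no _x_at or _s_at probe sets and means over all or the passing probe sets. Sums of neuron markers without Prph were added after seeing the data. The steps were tested on simulated data. Python 3.11.15, numpy 2.4.6, pandas 2.3.3, statsmodels 0.14.6 and matplotlib 3.10.9 were used. The number of arrays limits the precision.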

Additional observations from a re-analysis of the deposited data

How the results depend on the processing

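With 1 array per condition no array could be left out, and no paired analysis was possible because the groups have 1 sample each. A value is taken as moved when it changed by more than the pooled SD of 0.37 between probe sets of a gene, and a count when it changed by over 1.5 times. The log2 ratio of Avil lay between -3.72 and -3.67 under the other scalings and with signals at the array median or above, and moved to -2.99 with 16 added to both signals. Of the other probe sets of the family, 1 was past 2-fold without the filter, the third of Flii, and it reversed, with a log2 ratio of 0.040 when both signals, which are below the medians, are set at them. The mean over all probe sets of Flii, Svil and Gsn was -0.73, 0.06 and -0.03, in place of -0.22, -0.68 and -0.34 at the probe set used. With no filter 2 member probe sets were lower, the second being this one of Flii. The count of actin regulators higher by more than 2-fold was 0 with 16 added and with a signal of at least 100 required in 1 array, and 3 with no filter. The counts over the array moved most. With 16 added, 450 probe sets and 288 genes were higher and 460 and 237 lower, in place of 1061 and 573 higher and 956 and 399 lower. The 4 other scalings gave 963 to 984 probe sets higher and 1032 to 1074 lower, so that lower ones became the more frequent. With no filter, 6405 and 2294 were higher and 5326 and 1707 lower. With the median reached in both arrays, 551 probe sets and 321 genes were higher and 596 probe sets lower. With a signal of at least 100 in 1 array, 383 and 239 were higher and 477 probe sets lower, and with signals at the array median or above 683 probe sets were higher. Dim signals limit Svil, Vill, Scin and Capg, and the scalings shifted the median ratio of the array by -0.06 to -0.04.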
